A study of Mus musculus with 9 samples.

Results

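The genes of prostaglandin synthesis and of the PGE2 receptors were followed across treated mouse melanomas. The set holds 10 genes, taken by symbol out of 22195 genes with deposited values: the cyclooxygenases Ptgs1 and Ptgs2, the terminal synthases Ptges, Ptgis and Tbxas1, the degrading enzyme Hpgd, and the receptors Ptger1, Ptger2, Ptger3 and Ptger4. The set was chosen by the measured values of Ptger1, which was much lower under anti-PD1 than with IgG, so the values of Ptger1 are given as a description with no test, and in the comparison of anti-PD1 with IgG all 10 genes are described by their values, with no p-value and with counts of calls from which nothing is read. All 10 genes were among the 12980 genes with enough reads to be tested.

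The 9 libraries hold bulk RNA of skin tumors that grew from YUMMER1.7 cells under the skin of immunocompetent C57BL/6J mice. YUMMER1.7 is a mouse melanoma line with an added load of ultraviolet-induced mutations. When tumors measured 20 to 50 mm3, mice received an antibody to B7-H3 (3 libraries), an antibody to PD-1 (3 libraries) or an IgG isotype control (3 libraries). B7-H3 and PD-1 are immune checkpoint proteins. All 3 groups therefore share the mouse strain, the injected line and an antibody treatment. The labels do not say whether each library comes from a mouse of its own, so a p-value here speaks only of the spread among these samples, which may be technical, and 1 line and 1 site of growth limit the model.

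Prostaglandins are lipid messengers made from arachidonic acid that phospholipases release from membranes. The cyclooxygenases turn arachidonic acid into an unstable intermediate, and terminal synthases turn that into PGE2, prostacyclin or thromboxane. PGE2 acts on 4 G protein-coupled receptors, of which EP1 raises calcium, EP2 and EP4 raise cyclic AMP and EP3 mostly lowers it. In tumors, PGE2 is known for restraining cytotoxic lymphocytes and dendritic cells and for shaping macrophages.

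The IgG libraries stood apart from the rest before any gene of the set was considered. Genes that carry the major satellite repeat took 5.24 to 28.2% of gene reads with anti-B7-H3, 14.6 to 38.2% under anti-PD1 and 87.0 to 92.0% with IgG. Reads outside these genes numbered 7239044 to 14408350 with anti-B7-H3, 5326276 to 9583684 under anti-PD1 and 1252540 to 3546706 with IgG. The 1515 olfactory and vomeronasal receptor genes, normally silent outside sensory tissue, took 0.00406 to 0.020% of the reads outside satellite genes with anti-B7-H3, 0.00793 to 0.0283% under anti-PD1 and 0.0768 to 0.486% with IgG. These silent genes gave, per kilobase of coding length, the number of background reads predicted for each gene of the set, and that number is set beside the low genes below. Of 6 melanocyte markers, Mitf alone reached 1 CPM in every library. Tyr was at 0 in all 3 anti-B7-H3 libraries and in anti-PD1 library 2. Mlana was at 0 in 5 of the 6 antibody libraries and also in IgG libraries 1 and 2, with 0.460 CPM in IgG library 3. All 6 fibroblast markers and all 7 macrophage markers passed 1 CPM throughout.

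Levels are counts per library size, scaled with TMM (CPM), and only values per kilobase of coding length compare genes with each other. Per kilobase, the set was led by the enzymes of inducible PGE2 synthesis. The median over 9 libraries was 15.8 CPM per kb for Ptges and 10.8 for Ptgs2, then 3.31 for Tbxas1, 2.67 for Ptgs1 and 1.46 for Ptger4. The 5 lowest were Ptger3 at 0.700, Hpgd at 0.603, Ptger1 at 0.433, Ptger2 at 0.360 and Ptgis at 0.296 CPM per kb. Each neighbouring pair in that order overlapped in its range over the 9 libraries. The place of Ptger1 depended on the group: it averaged 0.411 ± 0.065 CPM per kb with anti-B7-H3 (SD, n = 3) and 0.226 ± 0.013 under anti-PD1, the lowest mean of the 10 in both, and 7.78 ± 2.39 with IgG, the third highest.

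**Figure D1:**
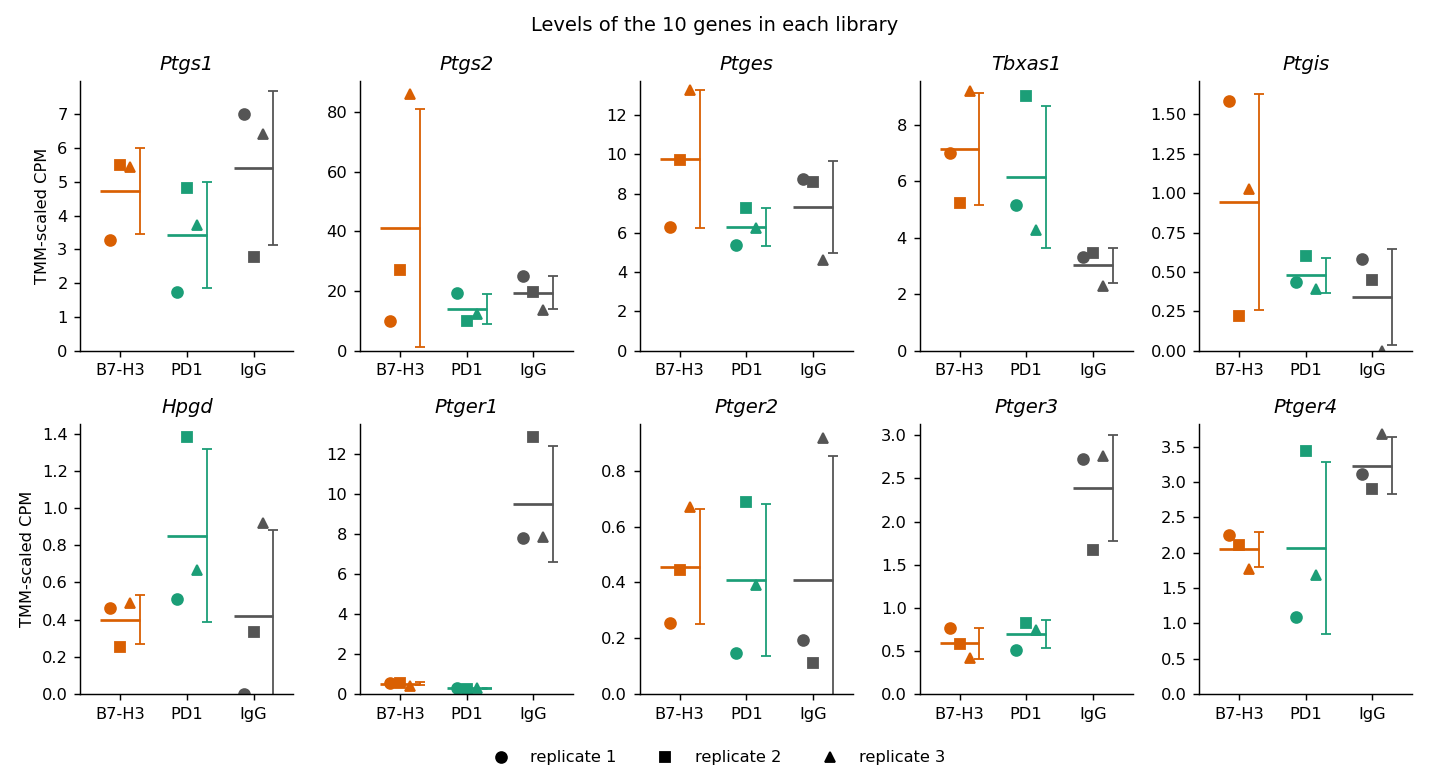
Level of each of the 10 genes in each library, in TMM-scaled CPM, with anti-B7-H3, anti-PD1 and IgG from left to right. Points are libraries, horizontal lines are group means and vertical bars are SD over 3 libraries. Ptger1 and Ptger3 are higher in all 3 IgG libraries than in any antibody library, Tbxas1 is lower in all 3, and Ptgs2 stands out in 1 anti-B7-H3 library at 86.2 CPM.

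Ptgs2 and Ptges, the inducible cyclooxygenase and the synthase that works with it to make PGE2, had the most reads per kilobase, so the RefSeq sequences around their start sites are shown. RefSeq promoters of build GRCm38.p6, 250 bases before to 50 after the start, were matched by symbol for 8 of the 10 genes; Ptger1 and Ptgis were not among them. Capitals mark matches, on either strand, to an NF-kappaB-like pattern (GGG, then any 5 bases, then CC), TGACG (the core of a cyclic AMP response element) or CACGTG (an E-box). The first sequence is chr1:150099781-150100080 on the plus strand and the second chr2:30903248-30903547 on the minus strand.
Ptgs2: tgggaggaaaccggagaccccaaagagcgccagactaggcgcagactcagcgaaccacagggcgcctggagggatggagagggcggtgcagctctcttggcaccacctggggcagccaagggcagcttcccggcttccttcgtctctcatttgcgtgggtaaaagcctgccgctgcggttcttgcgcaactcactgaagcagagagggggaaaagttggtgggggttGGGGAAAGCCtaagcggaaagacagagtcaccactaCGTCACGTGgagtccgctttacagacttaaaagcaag
Ptges: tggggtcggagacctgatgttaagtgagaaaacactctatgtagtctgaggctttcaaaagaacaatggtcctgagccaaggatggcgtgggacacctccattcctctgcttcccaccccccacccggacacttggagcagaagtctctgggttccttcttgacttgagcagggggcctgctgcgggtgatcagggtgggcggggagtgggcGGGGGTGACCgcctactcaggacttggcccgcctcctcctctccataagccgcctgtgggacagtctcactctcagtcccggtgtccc
The Ptgs2 window holds GGGGAAAGCC beginning 23 bases before the start, then CGTCA, which is TGACG read on the other strand, from transcript position 14, and CACGTG from position 17, so that the last pair of motifs overlap. The Ptges window holds GGGGGTGACC beginning 38 bases before the start. Among the 8 promoters, only that of Ptgs2 held TGACG or CACGTG. The TATA box TATAAA was searched as well and lies in neither window shown. Over all 32817 RefSeq promoters of this length, 50.8% hold the NF-kappaB-like pattern, 20.8% hold TGACG, 7.15% hold CACGTG and 13.6% hold TATAAA, so the first pattern is common and a match is a match of letters, not a shown binding site.

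Ptgs2 had its widest spread within the anti-B7-H3 group. It had 9.97, 27.1 and 86.2 CPM in anti-B7-H3 libraries 1, 2 and 3, against 19.5, 9.98 and 12.3 CPM under anti-PD1 and 25.1, 19.7 and 13.8 CPM with IgG. Anti-B7-H3 library 3 was the highest of all and library 1 the lowest, so the anti-B7-H3 range took in both other groups. The fitted log2 fold change came to 1.05 ± 0.69 (SE) for anti-B7-H3 over IgG (edgeR quasi-likelihood test with Benjamini-Hochberg adjustment, adjusted p = 0.652) and 1.57 ± 0.68 for anti-B7-H3 over anti-PD1 (adjusted p = 0.749). Without anti-B7-H3 library 3 these were -0.08 and 0.43. For anti-PD1 over IgG it was -0.52 ± 0.69.

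Ptges, the inducible microsomal PGE2 synthase, had 6.29, 9.72 and 13.3 CPM with anti-B7-H3, against 5.39, 7.28 and 6.24 CPM under anti-PD1 and 8.75, 8.60 and 4.60 CPM with IgG. Anti-B7-H3 library 3 was again the highest, and the 3 groups overlapped. In log2 fold change it gave 0.36 ± 0.30 for anti-B7-H3 over IgG (edgeR, adjusted p = 0.734), -0.28 ± 0.31 for anti-PD1 over IgG and 0.63 ± 0.28 for anti-B7-H3 over anti-PD1 (adjusted p = 0.749).

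Ptgs1 encodes the cyclooxygenase that most tissues make constitutively. It had 3.27, 5.50 and 5.43 CPM with anti-B7-H3, against 1.75, 4.83 and 3.73 CPM under anti-PD1 and 7.00, 2.79 and 6.43 CPM with IgG, and the groups overlapped. Its log2 fold change was -0.12 ± 0.43 for anti-B7-H3 over IgG (edgeR, adjusted p = 0.965), -0.57 ± 0.44 for anti-PD1 over IgG and 0.45 ± 0.40 for anti-B7-H3 over anti-PD1 (adjusted p = 0.821). Within a library, where no scaling enters, Ptgs2 had 3.04, 4.92 and 15.8 times the reads per kilobase of Ptgs1 with anti-B7-H3, 11.1, 2.06 and 3.29 times under anti-PD1 and 3.57, 7.02 and 2.14 times with IgG. The inducible enzyme was thus the more abundant per length in all 9 libraries, by a factor that overlapped between the groups.

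Tbxas1, which makes thromboxane and is abundant in macrophages and platelets, was the enzyme whose antibody libraries lay apart from IgG. It had 7.01, 5.22 and 9.20 CPM with anti-B7-H3 and 5.17, 9.01 and 4.28 CPM under anti-PD1, against 3.31, 3.46 and 2.30 CPM with IgG. All 6 antibody libraries were above all 3 IgG libraries. As a log2 fold change this was 1.18 ± 0.35 for anti-B7-H3 over IgG, which did not pass (edgeR, adjusted p = 0.190), 0.96 ± 0.36 for anti-PD1 over IgG, and 0.21 ± 0.30 for anti-B7-H3 over anti-PD1 (adjusted p = 0.900). The change for anti-B7-H3 over IgG passed where every gene with at least 1 read was tested (edgeR, log2 fold change 1.40, adjusted p = 0.027). In that setting 4.81% of all genes passed. It also passed under library totals, where 96.6% of all genes passed. The IgG libraries held 17, 31 and 5 reads of Tbxas1, where the background predicted 4.80, 2.68 and 6.00. With the predicted reads taken off, a choice made after seeing the data, the log2 ratio over IgG was 2.07 for anti-B7-H3 and 1.85 for anti-PD1. With the silent receptor reads as a covariate the log2 fold changes were 0.54 ± 0.69 and 0.45 ± 0.61. The share of these reads did not overlap between IgG and the antibody groups, so that fit cannot tell the covariate from the treatment.

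Summed macrophage markers followed Tbxas1 only in part, and single markers differed. The 7 macrophage genes summed to 497, 448 and 764 CPM with anti-B7-H3 and 369, 854 and 340 CPM under anti-PD1, against 407, 343 and 166 CPM with IgG, and the summed range under anti-PD1 overlapped that with IgG. Taken singly, Adgre1, Csf1r and Mrc1 were higher in every antibody library than in any IgG library, as Tbxas1 was. For Csf1r the gap was narrow, at 74.6 CPM in anti-PD1 library 3 and 73.3 CPM in IgG library 1. Cd68, C1qa, C1qb and Fcgr1 overlapped. Of all tested genes, 7.74% were higher without overlap for anti-B7-H3 against IgG, and 11.1% for anti-PD1 against IgG. Anti-B7-H3 library 3 and anti-PD1 library 2 were the highest for both Tbxas1 and the markers. They were also the highest for 5 skeletal muscle genes, at 1296 summed CPM in that anti-B7-H3 library and 903 in that anti-PD1 library. As a share of the macrophage sum, Tbxas1 was 1.41, 1.17 and 1.20% with anti-B7-H3 and 1.40, 1.05 and 1.26% under anti-PD1, against 0.812, 1.01 and 1.39% with IgG, and these shares overlapped. The 5 platelet markers summed to 5.96 to 11.3 CPM with anti-B7-H3, 6.39 to 17.7 CPM under anti-PD1 and 5.58 to 12.9 CPM with IgG. In bulk tissue, fewer cells of a type and less RNA per cell cannot be told apart, and the part of macrophage content in the Tbxas1 difference was not tested. The genes most like Tbxas1 by Pearson correlation of log2 CPM over the 9 libraries were Nip7 (r = 0.981), Mgl2 (r = 0.977), a macrophage and dendritic cell lectin, and Dnaja3 (r = 0.967), and all points share the libraries and their depth.

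**Figure D2:**
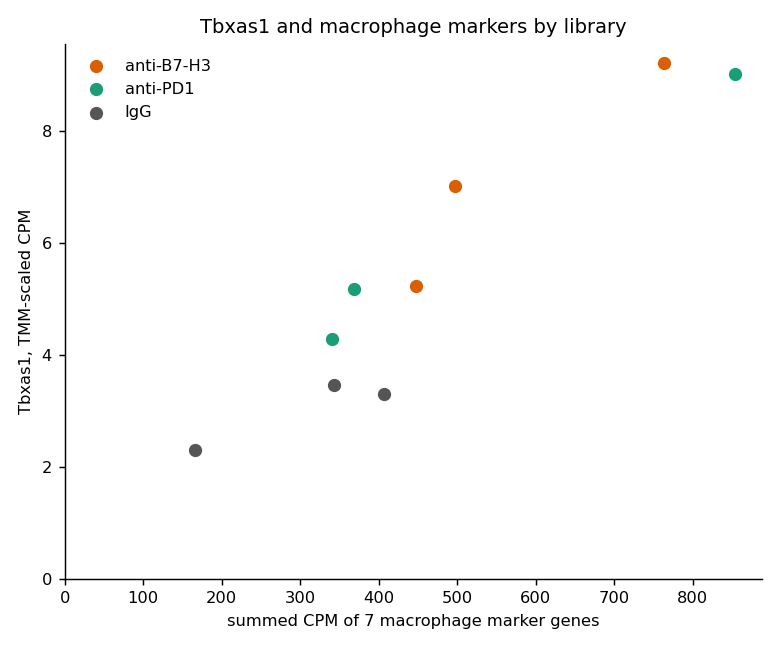
Tbxas1 level (TMM-scaled CPM) against the summed CPM of 7 macrophage marker genes, 1 point per library, colored by group. The IgG libraries are lowest in Tbxas1, but their marker sums (166 to 407 CPM) overlap those under anti-PD1 (340 to 854 CPM). The highest points are anti-B7-H3 library 3 (764 summed CPM) and anti-PD1 library 2 (854 summed CPM).

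Ptgis, the prostacyclin synthase of vessels and stroma, was near the limit of detection. It had 1.59, 0.222 and 1.03 CPM with anti-B7-H3, against 0.437, 0.603 and 0.392 CPM under anti-PD1 and 0.583, 0.447 and 0 CPM with IgG. The 0 in IgG library 3 allows up to 1.38 CPM, which 3 reads would give there, for counting error only. The IgG libraries held 7 reads together, below the 13.0 that the background predicted, so expression of Ptgis was not detectable there at this depth. The log2 fold change was 1.16 ± 0.87 for anti-B7-H3 over IgG (edgeR, adjusted p = 0.690), 0.22 ± 0.91 for anti-PD1 over IgG and 0.95 ± 0.72 for anti-B7-H3 over anti-PD1 (adjusted p = 0.804).

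Hpgd, the enzyme that inactivates PGE2 by oxidation, had 0.460, 0.250 and 0.488 CPM with anti-B7-H3, against 0.510, 1.38 and 0.667 CPM under anti-PD1 and 0, 0.335 and 0.919 CPM with IgG. All 3 anti-B7-H3 libraries lay below all 3 anti-PD1 libraries, though the closest pair differed by far less than the spread within anti-PD1. The 5 IgG reads together fell short of the 6.99 predicted from background, and the 0 in IgG library 1 allows up to 0.583 CPM. The fit gave a log2 fold change of -1.11 ± 0.70 for anti-B7-H3 over anti-PD1 (edgeR, adjusted p = 0.774), 0.29 ± 0.93 for anti-B7-H3 over IgG (adjusted p = 0.958) and 1.39 ± 0.91 for anti-PD1 over IgG.

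**Figure D3:**
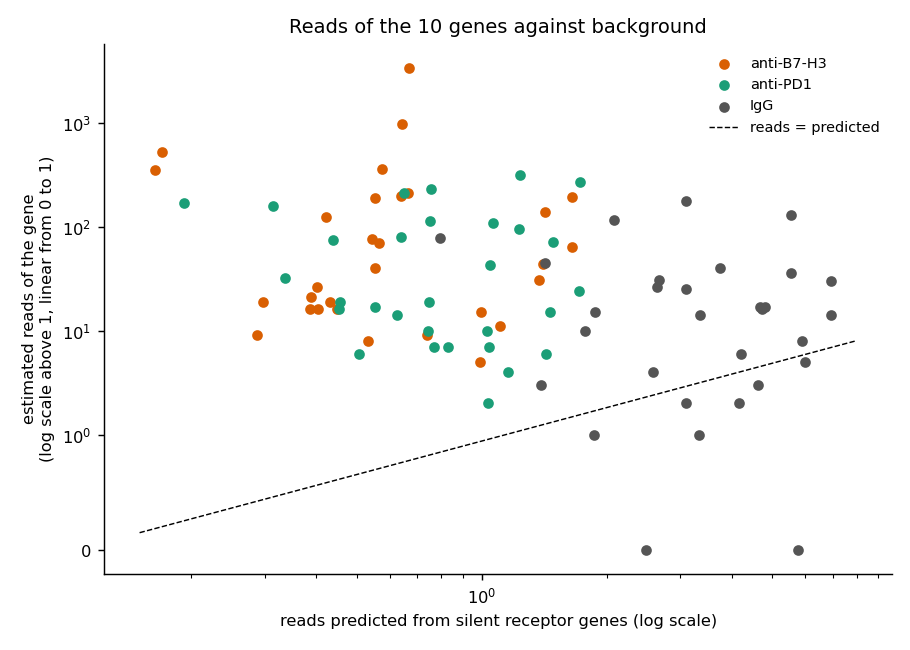
Estimated reads of each gene in each library (vertical, log scale above 1) against the reads that silent receptor genes predict for its coding length (horizontal, log scale), with a dashed line where both are equal. The points on or under the line are IgG points, among them 2 at 0 reads, while all antibody points lie above it.

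The receptor that chose the set, Ptger1 (EP1), was high in IgG tumors alone. It had 0.562, 0.528 and 0.411 CPM with anti-B7-H3 and 0.291, 0.259 and 0.275 CPM under anti-PD1, against 7.78, 12.8 and 7.81 CPM with IgG. The estimated reads behind these levels were 11, 19 and 16 with anti-B7-H3, 4, 6 and 7 under anti-PD1 and 40, 115 and 17 with IgG. No antibody library came near an IgG library, and the anti-PD1 values lay below those with anti-B7-H3. The fitted log2 fold change came to -4.26 ± 0.34 for anti-B7-H3 over IgG, -5.11 ± 0.37 for anti-PD1 over IgG and 0.84 ± 0.38 for anti-B7-H3 over anti-PD1.

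The IgG reads of Ptger1 exceeded background by different amounts. The silent receptor genes predicted 3.74, 2.09 and 4.67 reads in the 3 IgG libraries, and the observed reads were 10.7, 55.1 and 3.64 times that. After the predicted reads were taken off, an alternative chosen after seeing the data, the log2 ratio was -4.16 for anti-B7-H3 over IgG and -5.21 for anti-PD1 over IgG. The genes most like Ptger1 over the 9 libraries were LTO1 (r = 0.983), Cnbd2 (r = 0.978) and Fam117b (r = 0.974). Cnbd2 had 6.09, 5.72 and 3.50 CPM with anti-B7-H3 and 4.69, 2.84 and 5.29 CPM under anti-PD1, against 84.8, 68.2 and 99.7 CPM with IgG. LTO1, Cnbd2 and Fam117b were all highest in the same 3 libraries as Ptger1, those with the high satellite and silent receptor reads. The part of these reads in the Ptger1 difference was not tested. Fam117b differed far less, at 13.17 to 14.75 CPM in the antibody libraries and 18.86 to 20.93 CPM with IgG. The 5 keratinocyte markers were also highest in the IgG libraries. They summed to 0.472 to 1.74 CPM with anti-B7-H3 and 0.863 to 1.97 under anti-PD1, against 9.33 to 23.0 with IgG. No background was predicted for these markers, and their part was not tested either.

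Ptger2 (EP2), a receptor of lymphocytes and myeloid cells that raises cyclic AMP, had 0.256, 0.444 and 0.668 CPM with anti-B7-H3, against 0.146, 0.690 and 0.392 CPM under anti-PD1 and 0.194, 0.112 and 0.919 CPM with IgG. The groups overlapped. The IgG libraries held 1, 1 and 2 reads, together below the 9.39 predicted from background, so EP2 was not detectable there at this depth. In log2 fold change it gave 0.72 ± 0.97 for anti-B7-H3 over IgG (edgeR, adjusted p = 0.854), 0.58 ± 0.99 for anti-PD1 over IgG and 0.14 ± 0.72 for anti-B7-H3 over anti-PD1 (adjusted p = 0.981).

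Ptger3 (EP3), which signals mainly through inhibitory G proteins, was the other receptor with no overlap between IgG and either antibody. It had 0.767, 0.583 and 0.411 CPM with anti-B7-H3 and 0.510, 0.821 and 0.745 CPM under anti-PD1, against 2.72, 1.67 and 2.76 CPM with IgG. The reads were few, 14, 15 and 6 with IgG, where background predicted 3.37, 1.88 and 4.20. As a log2 fold change this was -1.99 ± 0.50 for anti-B7-H3 over IgG, which did not pass in edgeR (adjusted p = 0.113) and did in DESeq2 (adjusted p = 0.006) and in limma-voom with quality weights (adjusted p = 0.012). It was -1.72 ± 0.50 for anti-PD1 over IgG and -0.27 ± 0.48 for anti-B7-H3 over anti-PD1 (edgeR, adjusted p = 0.923). With the predicted reads taken off, the log2 ratio against IgG was -1.37 for anti-B7-H3 and -1.16 for anti-PD1. The lowest IgG value was then 0.826 CPM, in library 3, beside highest values of 0.716 CPM with anti-B7-H3 and 0.801 CPM under anti-PD1. These gaps are far smaller than the 1.38 CPM that 3 reads give in IgG library 3, so nothing is read from the lack of overlap. The genes most like Ptger3 were Kat8 (r = 0.967), Zfp316 (r = 0.961) and Fam171a2 (r = 0.959).

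Ptger4 (EP4), the main cyclic AMP-raising PGE2 receptor of macrophages and T cells, had 2.25, 2.11 and 1.77 CPM with anti-B7-H3, against 1.09, 3.44 and 1.69 CPM under anti-PD1 and 3.11, 2.90 and 3.68 CPM with IgG. The anti-B7-H3 libraries lay below the IgG libraries, and those under anti-PD1 overlapped both. The log2 fold change was -0.63 ± 0.42 for anti-B7-H3 over IgG (edgeR, adjusted p = 0.650), -0.59 ± 0.43 for anti-PD1 over IgG and -0.04 ± 0.39 for anti-B7-H3 over anti-PD1 (adjusted p = 0.993). With the predicted reads taken off, the log2 ratio was 0.07 against IgG for each antibody.

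The make-up of the receptor family within a library does not depend on library scaling. Ptger4 held 51.1, 49.9 and 46.5% of the reads per kilobase of the 4 PGE2 receptors with anti-B7-H3 and 45.8, 58.3 and 46.4% under anti-PD1, against 18.2, 13.4 and 19.6% with IgG. Ptger1 held 16.2, 15.8 and 13.6% with anti-B7-H3 and 15.5, 5.55 and 9.55% under anti-PD1, against 57.7, 75.0 and 52.7% with IgG. EP4 was thus the leading receptor in all 6 antibody libraries and EP1 in all 3 IgG libraries. The level of Ptger1 chose the set, so its large share with IgG follows from that choice and is given as a description. Since shares sum to the whole, the share of one fixes part of the share of the other. Background was not taken off, and in IgG library 3 Ptger4 held 8 reads where 5.91 were predicted.

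**Figure D4:**
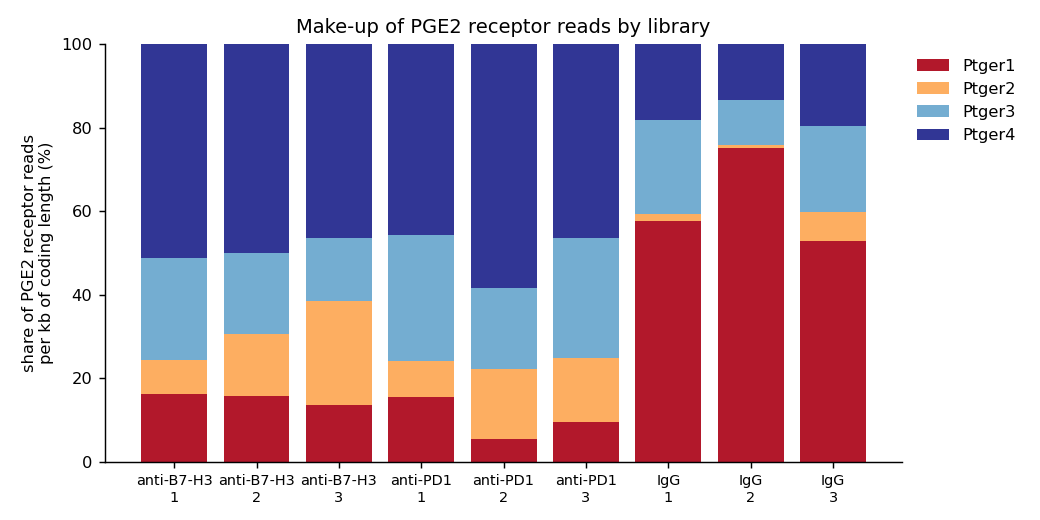
Share of each PGE2 receptor in the reads per kilobase of the 4 receptors together (percent, stacked to the whole), 1 bar per library, with anti-B7-H3 and anti-PD1 bars left of the IgG bars. Ptger1 takes 52.7 to 75.0% of the IgG bars and at most 16.2% of the antibody bars.

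Leaving Ptger1 aside, edgeR called 0 of the 9 other genes for anti-B7-H3 over IgG, where it called 0.609% of all tested genes, 0.0077% higher and 0.601% lower. At an unadjusted p under 0.05 there were 2 of the 9, Ptger3 and Tbxas1, beside 10.6% of all tested genes. DESeq2 called 1 of the 9 (3.87% of all genes), limma-voom with quality weights 1 (2.82% of all genes) and limma-voom without weights 0 (0.593% of all genes). For anti-B7-H3 over anti-PD1, edgeR called 0 of the 9, where it called 0.0% of all genes. In that comparison 2 of the 9, Ptgs2 and Ptges, had an unadjusted p under 0.05, beside 6.48% of all genes. DESeq2 called 0 there (0.185% of all genes), and both forms of limma-voom called 0 (0.0% of all genes). For anti-PD1 over IgG, the contrast that chose the set, edgeR called 0 of the 9, where it called 0.408% of all genes (0.0077% higher and 0.401% lower), and nothing is read from that count.

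By library values, the groups did not overlap for 3 of the 9 between anti-B7-H3 and IgG (Tbxas1 higher, Ptger3 and Ptger4 lower), against 16.3% of all tested genes, 7.74% higher and 8.57% lower. Between anti-PD1 and IgG this held for 2 of the 9 (Tbxas1 higher, Ptger3 lower), against 23.0% of all tested genes, 11.1% higher and 11.9% lower. Between anti-B7-H3 and anti-PD1 it held for 1 of the 9 (Hpgd lower), against 15.4%, 7.57% higher and 7.87% lower. The median log2 fold change of the 9 was 0.36 for anti-B7-H3 over IgG, -0.28 for anti-PD1 over IgG and 0.21 for anti-B7-H3 over anti-PD1, beside 0.03, 0.01 and 0.01 over all tested genes. The comparisons with IgG share the same 3 IgG libraries.

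**Figure D5:**
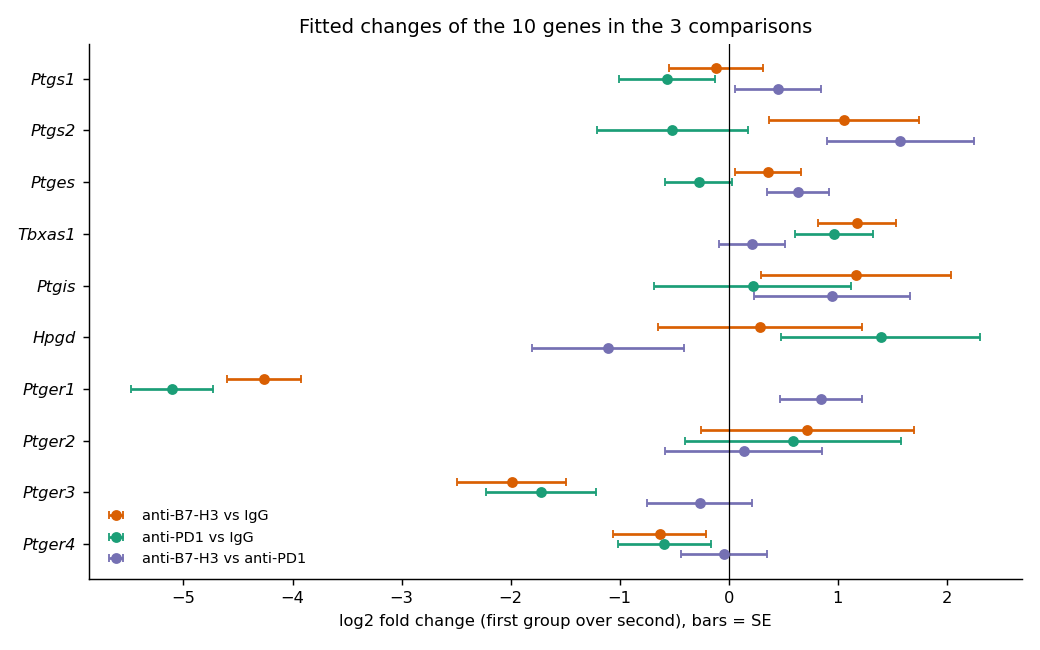
Fitted log2 fold change of each gene (first group over second) with its SE in the 3 comparisons. Ptger1 lies at -4.26 and -5.11 against IgG, Ptger3 at -1.99 and -1.72, and the other estimates lie between -1.11 and 1.57.

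The rest of the pathway was read from 45 listed genes of prostaglandin supply and breakdown, other prostanoid receptors, leukotriene synthesis and PGE2 receptor signalling, of which 44 were found by symbol and 34 had enough reads. None of the 34 passed in edgeR in any comparison, in either direction. An unadjusted p under 0.05 was reached by 3 for anti-B7-H3 over IgG, 6 for anti-PD1 over IgG and 2 for anti-B7-H3 over anti-PD1. Of all tested genes, 0.609%, 0.408% and 0.0% passed in these comparisons, and 10.6%, 18.5% and 6.48% had an unadjusted p under 0.05. Ptgir, the prostacyclin receptor, had 0.409, 0.528 and 0.360 CPM with anti-B7-H3 and 0.218, 0.474 and 0.275 CPM under anti-PD1, against 2.14, 1.79 and 1.38 CPM with IgG. Its log2 fold change was -2.04 ± 0.54 for anti-B7-H3 over IgG (edgeR, adjusted p = 0.136) and -2.44 ± 0.56 for anti-PD1 over IgG. The IgG libraries lay above all antibody libraries for Ptgir, as for Ptger1 and Ptger3. Of all tested genes, 8.57% were lower without overlap for anti-B7-H3 against IgG, and 11.9% for anti-PD1 against IgG. The 1.38 CPM of Ptgir in IgG library 3 is what 3 reads give there, and no background was predicted for this gene. Ptgr2, a reductase that takes part in prostaglandin breakdown, had 1.79, 1.42 and 3.14 CPM with anti-B7-H3 and 2.11, 3.51 and 1.22 CPM under anti-PD1, against 0.778, 0.893 and 0.919 CPM with IgG, a log2 fold change of 1.30 ± 0.54 for anti-B7-H3 over IgG (edgeR, adjusted p = 0.403). Pla2g6, a phospholipase, and Abcc4, an exporter of PGE2, differed by 0.72 ± 0.23 and 0.73 ± 0.27 in log2 fold change between anti-B7-H3 and anti-PD1 (edgeR, adjusted p = 0.749 for each).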

How the data were processed

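Per the file headers, the authors deposited, for each of 9 libraries, estimated counts per transcript with TPM values that they scaled by effective length. The TPM were not used. The submitters' processing notes name FastQC 0.11.8 and GRCm38; the tool behind the estimates is not given in the sources used. Per the labels' protocols, total RNA was depleted of ribosomal RNA. Of 58083 listed transcripts, 57473 matched GENCODE M21, and the other 610 held 0.0537 to 0.344% of reads. The deposited transcript length equals the coding sequence, within 3 bases, for 94.1% of 57362 matched coding transcripts, so lengths are coding lengths.

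Estimated counts were summed per gene and rounded. R 4.3.3 and edgeR 4.0.16 fitted a robust quasi-likelihood model to all 9 libraries with TMM scaling, filterByExpr and group as the only term; p-values were adjusted by Benjamini-Hochberg over 12980 genes, with 0.05 as the threshold. The biological coefficient of variation was 28.5%. CPM are TMM-scaled, so changes are relative to the typical gene; under library totals the median gene changed by 3.37 and 3.15 on the log2 scale for anti-B7-H3 and anti-PD1 over IgG. Estimated reads per library ranged from 8627930 to 27288766. Alternatives used DESeq2 1.42.0, limma 3.58.1, other scalings and filters, and each library left out. Satellite genes, 12 in number, were those with a transcript sharing over 30% of its 15-base words with transcripts of Gm10800.

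The 10 genes, the pathway and marker lists and the tests were chosen with earlier results of these data known. Genes named besides the 10 were the 2 smallest p of each pathway list, genes overlapping a member, and the 3 tested genes most correlated with a member, with a symbol and a mean of at least 1 log2 CPM; only some of these are printed, and 1 picked gene is not reported here.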

Additional observations from a re-analysis of the deposited data

How the results depend on the processing

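Of 30 log2 fold changes (10 genes in 3 comparisons), 16 kept their sign under every alternative run, those of Ptger1 and Ptger3 among them, with library totals taken relative to the median gene, and the cause of the reversals was not tested. Leaving out each library in turn called 0 of the 9 genes other than Ptger1 in every comparison. Of all genes, these runs called 0.0604 to 3.42% for anti-B7-H3 over IgG, 0.0680 to 3.30% for anti-PD1 over IgG and 0.0% for anti-B7-H3 over anti-PD1. With shares this low, nothing is read from the counts of 0. When only the compared libraries were fitted, Ptger2, Ptgis and Hpgd lacked enough reads for anti-B7-H3 over IgG, and Ptger2 and Ptgis for anti-PD1 over IgG. Of the others except Ptger1, 0 of 6 and 0 of 7 were called there, beside 0.161% and 0.737% of all genes. For anti-B7-H3 over IgG, DESeq2 called 1 of the 9 (Ptger3) and limma-voom with quality weights 1 (Ptger3). Testing all genes with at least 1 read called 1 (Tbxas1), beside 4.81% of all genes. Library totals called 9, all higher, Ptger3 included, since that test takes in the shift of all genes (96.0% of them called higher). For anti-PD1 over IgG, which chose the set, the counts were 1 with DESeq2 (6.33% of all genes), 1 with quality weights (3.34%) and 9 with library totals (95.1%), and nothing is read from them. With receptor gene CPM as a covariate, anti-B7-H3 over IgG gave -0.71 for Ptger2, -0.69 for Ptgs2, -1.10 for Ptges and, without a change of sign, -1.23 for Ptger3. In that fit anti-PD1 over IgG gave -0.55 for Ptger2, and anti-B7-H3 over anti-PD1 gave -0.16 for Ptger2. Receptor gene CPM was 768 to 4863 with IgG, 40.6 to 200 with anti-B7-H3 and 79.3 to 283 under anti-PD1. In contrasts with IgG, the covariate and the treatment therefore cannot be told apart. The SE of Ptger2 for anti-B7-H3 over IgG grew from 0.97 to 2.00. With predicted reads subtracted, chosen after seeing the data, Ptger4 gave 0.07 for each antibody against IgG and Ptgs1 0.28 for anti-B7-H3 over IgG. Ptgs1 there also gave 0.15 with limma-voom, 0.04 with quality weights, 0.16 with totals without satellite genes and 0.13 with all genes with at least 1 read. Quality weights gave Ptgis -0.51 for anti-B7-H3 over IgG, -0.28 for anti-PD1 over IgG and -0.23 for anti-B7-H3 over anti-PD1, and Ptger4 0.37 in the last comparison. With 1 library left out, the ranges that crossed zero were -0.49 to 0.21 for Ptgs1, -0.08 to 1.52 for Ptgs2 and -0.38 to 0.96 for Hpgd in anti-B7-H3 over IgG; -0.08 to 1.52 for Ptger2 and -0.07 to 0.58 for Ptgis in anti-PD1 over IgG; and -0.23 to 0.71 for Ptger2, -0.34 to 0.54 for Ptger4 and -0.02 to 0.61 for Tbxas1 in anti-B7-H3 over anti-PD1. Over all genes, calls of lower genes with 1 library left out ranged from 8 to 444 for anti-B7-H3 over IgG (78 with all libraries) and from 9 to 418 for anti-PD1 over IgG (52 with all); DESeq2 called 476 and 641.

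Same-numbered libraries correlated at r = -0.322 to 0.18 in their deviations from the group means, and 5 of 18 best matches had the same number. No pairing by number was therefore visible. The labels do not say what the numbers share, so whether they pair the libraries remains unknown. A fit with the replicate number as a block called 0 of the 9 genes in each comparison, turned Ptger4 to 0.04 for anti-B7-H3 over anti-PD1, and over all genes called 102 lower for anti-B7-H3 over IgG and 134 lower for anti-PD1 over IgG. Low read numbers limit Ptger2, Ptgis and Hpgd with IgG most, and few reads outside satellite genes limit every contrast with IgG.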

Other observations

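Leukotrienes are the other branch of arachidonic acid use. Of 7 tested leukotriene genes, 0 passed in edgeR in any comparison, and 0 had an unadjusted p under 0.05. Of all tested genes, 0.609% passed for anti-B7-H3 over IgG, 0.408% for anti-PD1 over IgG and 0.0% for anti-B7-H3 over anti-PD1. An unadjusted p under 0.05 was reached by 10.6%, 18.5% and 6.48% of them. With so few genes, nothing is read from the counts of 0. Alox5ap, which hands arachidonic acid to the 5-lipoxygenase, had 3.91, 3.67 and 8.44 CPM with anti-B7-H3 and 4.22, 10.8 and 2.71 CPM under anti-PD1, against 2.92, 2.68 and 1.84 CPM with IgG, a log2 fold change of 1.05 ± 0.57 for anti-B7-H3 over IgG (edgeR, adjusted p = 0.569). Its highest libraries were those with the highest macrophage marker sums, as for Tbxas1. Among 14 signalling genes downstream of the PGE2 receptors, Creb1, a transcription factor that cyclic AMP signalling activates, had 11.6, 14.1 and 12.8 CPM with anti-B7-H3 and 16.4, 14.8 and 13.3 CPM under anti-PD1, against 29.8, 14.0 and 47.3 CPM with IgG. IgG library 2 lay among the antibody values, and the log2 fold change for anti-B7-H3 over IgG was -1.19 ± 0.34 (edgeR, adjusted p = 0.163).

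Over the 9 libraries, the genes whose log2 CPM was most like that of Ptgs2 were Slc25a33 (r = 0.971), a mitochondrial nucleotide carrier, Nos2 (r = 0.960), the inducible nitric oxide synthase, and Il1rl1 (r = 0.956), the receptor of interleukin 33. Nos2 had 1.48, 4.14 and 17.9 CPM with anti-B7-H3, against 2.62, 1.64 and 2.86 CPM under anti-PD1 and 4.28, 2.46 and 2.76 CPM with IgG. As with Ptgs2, anti-B7-H3 library 3 was the highest and library 1 the lowest. All 9 points share their libraries and depth with Ptgs2.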
